A study of Homo sapiens with 4 samples.

Results

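The genes described here are long noncoding RNA genes that carry a systematic LINC name, measured in TE5, an established cell line derived from squamous cell carcinoma of the esophagus. They were chosen by their measured abundance: a row of the deposited count table was taken when its symbol was LINC followed only by digits and its counts in the 4 libraries summed to 100 or more. Of 1907 such rows among 56657 in the table, 1053 had no count, 679 had 1 to 99 counts and 175 met the minimum. The sum of counts is the value the choice used, so abundance is given here as a description. All 175 passed the filter on low counts, as did 102 of the rows with 1 to 99 counts. The 4 libraries were 2 of wild-type cells that carried a control hairpin (shControl) and 2 of cells in which a short hairpin RNA knocked down NUP153 (shNUP153). Both groups received hairpins by lentivirus and puromycin selection, and RNA was taken at day 7. The descriptions of the shNUP153 libraries carry g1 and g2, and the labels do not say whether 2 hairpins were used. Separate cultures are not stated for the replicates, so p-values measure the spread between these libraries, which may be technical.

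Long noncoding RNAs are transcribed by RNA polymerase II, and many are capped, spliced and polyadenylated like messenger RNAs. Most are scarce, many stay in the nucleus, and nuclear exosome decay limits the level of many of them. Some act on a neighbouring gene on the same chromosome and others act elsewhere through proteins or RNAs that they bind. A LINC symbol is given in series to noncoding loci that lie between protein-coding genes, and it says nothing of function. NUP153 is a protein of the nuclear pore basket with parts in transport and in contacts of the pore with chromatin.

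Library totals ran from 22606593 to 27396268 counts. NUP153 was at 149 and 142 CPM in shControl and at 67.9 and 81.9 CPM in shNUP153 (CPM is a gene's count per 1000000 counts of its library, the total being scaled by TMM, the trimmed mean of M values), a 1.94-fold fall (log2 fold change -0.96, SE 0.0619, edgeR adjusted p = 1.05e-14). The squamous regulators TP63 (231 to 250 CPM) and SOX2 were present in all 4 libraries, SOX2 at 48.2 and 49.4 CPM in shControl and 37.6 and 39.4 CPM in shNUP153. The epithelial markers KRT5 (23.7 and 25.1, then 13.8 and 16.8 CPM) and EPCAM (237 and 226, then 112 and 117 CPM) were lower in the shNUP153 libraries. KRT17 (745 and 724, then 1252 and 1238 CPM) and KRT18 (371 and 379, then 449 and 431 CPM) were higher. Smaller differences, all lower, were seen in KRT8 (1491 and 1512, then 1410 and 1394 CPM), DSG3 (127 and 118, then 117 and 114 CPM), DSP (367 and 334, then 295 and 300 CPM) and KRT6A (37.7 and 37.4, then 29.4 and 34.7 CPM). KRT14, a basal keratin, had only 6 to 13 counts. Leukocyte genes PTPRC, CD3E and CD68 had at most 3 counts in any library, as did the endothelial gene PECAM1, and fibroblast DCN had 0. CDH5, an endothelial cadherin, stood at 9.64 to 22.8 CPM and COL1A1, a fibroblast collagen, at 13.0 to 16.8 CPM, both with higher values in the shNUP153 libraries. COL3A1, also a fibroblast collagen, had only 7 to 12 counts. In bulk RNA, fewer cells with a transcript and less of it per cell cannot be told apart. What part other cells or gene regulation have in those values was not tested.

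Among the 175 LINC genes, 30 rose, 9 fell and 136 did not pass the edgeR quasi-likelihood test at a Benjamini-Hochberg adjusted p of 0.05 over all 16817 tested genes. The rises made up 17.1% of the members and the falls 5.14%. Over all tested genes 15% were higher in shNUP153, 17.4% were lower and 32.4% were called in either direction, against 22.3% of the LINC genes. At the level of 2-fold, 12 members rose at least 2-fold and 0 fell at least 2-fold, the lowest log2 fold change of any member being -0.99. Of these 12, 8 had only 16 to 46 counts over the shControl libraries and so met the minimum sum through the shNUP153 libraries in which they were high. The count of 2-fold rises therefore depends on how the members were chosen and is a description. Of all members 15 had under 50 counts in shControl and 2 had under 50 in shNUP153. At 1.5-fold or more the counts were 23 and 3. The share of all tested genes at that level was not counted. Of the 30 risen members 9 had under 50 counts in shControl, so nothing is read from these counts. The median log2 fold change was 0.09, with quartiles of -0.08 and 0.34, beside 0.01 over all tested genes. Values of the shControl and shNUP153 libraries did not overlap for 96 members (54.9%), 70 of them higher in shNUP153, whereas they did not overlap for 64.4% of all tested genes. Without shNUP153 replicate 1 the members called were 14 higher and 4 lower, and without shNUP153 replicate 2 they were 21 and 5. DESeq2 called 10 higher and 3 lower, and gave no adjusted p for 8 of the 30.

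The members took 0.106% and 0.103% of all counts in the shControl libraries and 0.118% and 0.113% in the shNUP153 libraries. Their summed level went from 1081 and 1056 CPM without the knockdown to 1152 and 1117 CPM with it. Most of that sum came from genes that did not pass the test. The 30 risen members, which the test itself chose, together held 125 and 120 CPM without the knockdown and 190 and 189 CPM with it. The 9 fallen members held 130 and 124 CPM without it and 105 and 98.6 CPM with it.

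The largest rises were in genes of low level. LINC01204, on chromosome X, had 7 and 9 counts in the shControl libraries and 48 and 59 in the shNUP153 libraries, or 0.316 and 0.338 CPM against 1.85 and 2.49 CPM. Both knockdown values lay far above both control values, a 6.51-fold rise (log2 fold change 2.70, SE 0.381, edgeR adjusted p = 6.79e-07). LINC02154, also on chromosome X, was at 1.67 and 2.51 CPM in shControl and 7.29 and 7.16 CPM in shNUP153. The knockdown libraries lay close together and above the controls, which differed more from each other (3.40-fold, log2 fold change 1.77, SE 0.189, edgeR adjusted p = 2.77e-09). LINC00886, on chromosome 3, stood at 3.29 and 2.74 CPM in the control libraries and at 7.17 and 6.41 CPM after knockdown. Its groups did not overlap and the rise was 2.27-fold (log2 fold change 1.18, SE 0.173, edgeR adjusted p = 1.38e-06).

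LINC00431, on chromosome 13, was measured at 1.40 and 1.05 CPM in shControl and 3.51 and 3.29 CPM in shNUP153, a 2.80-fold rise (SE 0.252 on the log2 scale, edgeR adjusted p = 1.5e-05). LINC01629, on chromosome 14, had 2.12 and 1.28 CPM in shControl and 4.67 and 4.68 CPM in shNUP153, also 2.80-fold (SE 0.223 on the log2 scale, edgeR adjusted p = 2.07e-06). In both genes the lower knockdown library was above the higher control library. The calls of LINC01204, LINC02154, LINC00886, LINC00431 and LINC01629 were lost under none of the 12 other fits, apart from DESeq2 for LINC01204, where that tool gave no adjusted p.

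The other 7 rises of at least 2-fold were in genes with about 1 CPM or less in shControl, and each lost its call when 1 library was left out. LINC01348 stood at 0.541 and 0.638 CPM in shControl and 1.58 and 1.48 CPM in shNUP153 (log2 fold change 1.36, edgeR adjusted p = 0.00345, and 0.0583 without shNUP153 replicate 1). LINC01088 was at 0.766 and 0.600 CPM and then 1.81 and 1.601 CPM (log2 fold change 1.33, edgeR adjusted p = 0.00255, and 0.0605 without shNUP153 replicate 1). In both genes each knockdown library lay above each control library. LINC01535 was at 0.631 and 0.825 CPM in shControl and 1.93 and 1.43 CPM in shNUP153 (log2 fold change 1.19, edgeR adjusted p = 0.00629, and 0.159 without shNUP153 replicate 1). LINC01269 had 0.586 and 0.788 CPM in the controls and 1.47 and 1.56 CPM after knockdown (log2 fold change 1.12, edgeR adjusted p = 0.0134, and 0.0795 without shNUP153 replicate 1). LINC01269 also lost its call without shNUP153 replicate 2 (0.101) and without shControl replicate 1 (0.0829).

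LINC02178 was at 0.992 and 0.675 CPM in shControl and 1.74 and 1.77 CPM in shNUP153 (log2 fold change 1.09, edgeR adjusted p = 0.0092). Its adjusted p was 0.116 without shControl replicate 2, 0.0743 without shNUP153 replicate 1 and 0.0719 without shNUP153 replicate 2. For LINC02454 the values were 0.676 and 0.713 CPM in shControl and 1.74 and 1.14 CPM in shNUP153 (log2 fold change 1.05, edgeR adjusted p = 0.0237), so that the knockdown libraries differed from each other by more than the controls did. Leaving out shNUP153 replicate 1 gave LINC02454 a log2 fold change of 0.70 and an adjusted p of 0.359, and leaving out either shControl library gave 0.0686 or 0.0681. LINC01133, which has been studied in epithelial-mesenchymal transition, stood at 0.902 and 0.975 CPM in shControl and 2.39 and 1.48 CPM in shNUP153 (log2 fold change 1.04, edgeR adjusted p = 0.00956). The rise was smaller without shNUP153 replicate 1, where the log2 fold change of LINC01133 was 0.64. DESeq2 gave LINC01133 an adjusted p of 0.0807.

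**Figure D1:**
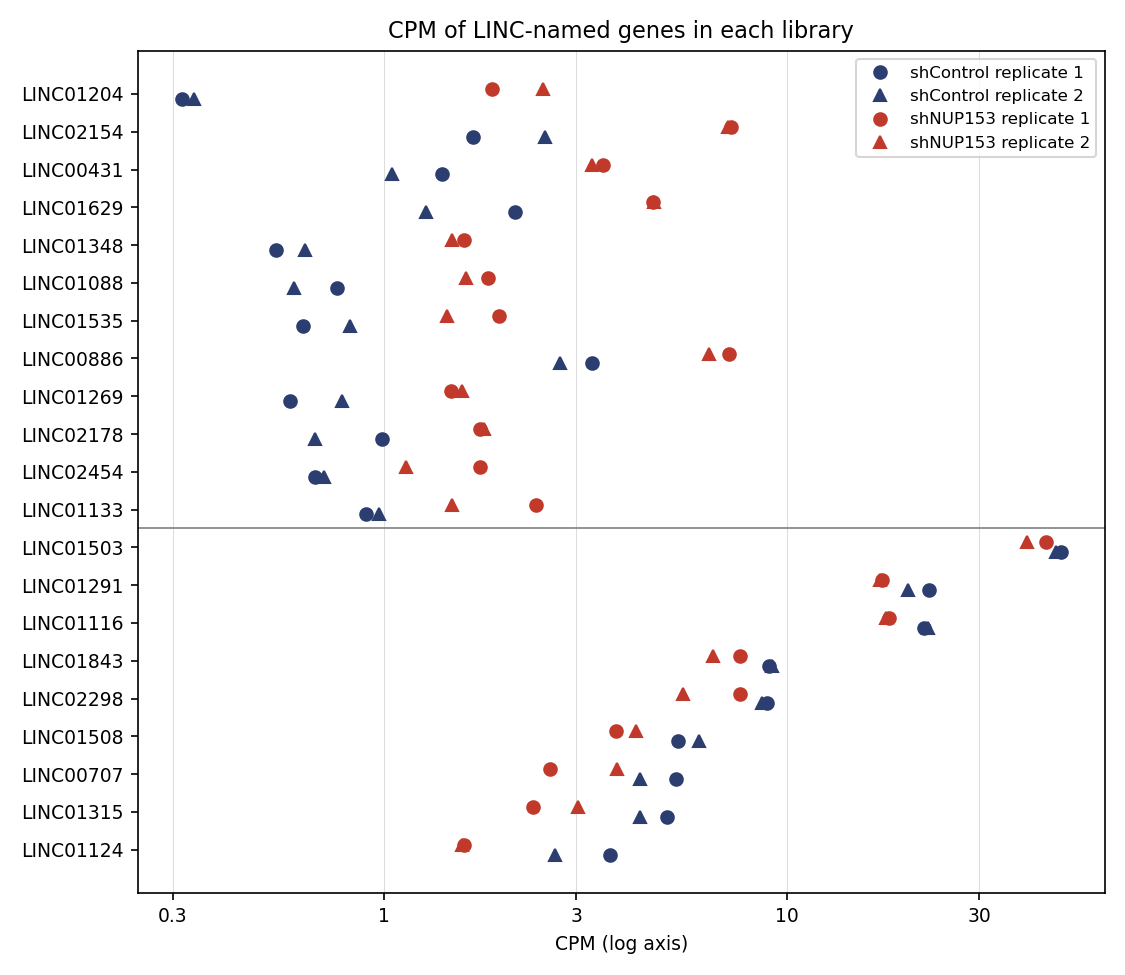
CPM on a log axis for the 12 LINC genes with the largest rises (above the line) and the 9 that fell (below it), 1 point per library, blue for shControl and red for shNUP153, circles for replicate 1 and triangles for replicate 2. The groups are apart in every gene, with the widest gap in LINC01204, from 0.316 and 0.338 CPM to 1.85 and 2.49 CPM.

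Several rises of less than 2-fold were in better measured genes, though LINC00973 (291 counts) and LINC00910 (302 counts) are not among those. The genes of this paragraph other than LINC00941 were chosen after their values were seen. LINC02657, now named LASTR, is known to bind the splicing factor SART3. It was at 10.9 and 12.9 CPM in shControl and 20.6 and 19.4 CPM in shNUP153. The groups were well apart, and the rise was 1.67-fold (log2 fold change 0.74, SE 0.102, edgeR adjusted p = 4e-07). LINC00174 was at 10.3 and 9.53 CPM in shControl and 14.7 and 13.6 CPM in shNUP153 (log2 fold change 0.52, edgeR adjusted p = 0.000334). LINC00888 was at 4.96 and 5.40 CPM and then 8.02 and 7.42 CPM (log2 fold change 0.57, edgeR adjusted p = 0.00215). LINC00973 was at 2.39 and 1.65 CPM and then 3.62 and 4.21 CPM (log2 fold change 0.97, edgeR adjusted p = 0.000739). LINC00910 was at 2.25 and 2.21 CPM and then 3.86 and 3.92 CPM (log2 fold change 0.80, edgeR adjusted p = 0.00265). These 5 kept their calls under all 12 other fits. LINC00941, a regulator of keratinocyte differentiation, was at 28.8 and 25.5 CPM in shControl and 32.8 and 36.4 CPM in shNUP153, a 1.28-fold rise (SE 0.0807 on the log2 scale, edgeR adjusted p = 0.000754) whose adjusted p was 0.0753 without shNUP153 replicate 2.

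The 9 falls were smaller, and only LINC01124 kept its call under all 12 other fits. DESeq2 did not call LINC00707 (adjusted p 0.11), LINC01508 (0.106), LINC02298 (0.13), LINC01843 (0.166) or LINC01291 (0.05655). Under total-count scaling LINC02298 (edgeR adjusted p 0.05085) and LINC01843 (0.0855) also lost their calls, as did LINC01843 under upper-quartile scaling (0.0653). LINC01124, on chromosome 2, was at 3.65 and 2.66 CPM in shControl and 1.58 and 1.56 CPM in shNUP153. The controls differed from each other by about 1 CPM and both lay above the knockdown libraries (1.99-fold lower, log2 fold change -0.99, SE 0.246, edgeR adjusted p = 0.00181). LINC01315 was at 5.05 and 4.31 CPM in shControl and 2.35 and 3.03 CPM in shNUP153 (log2 fold change -0.80, edgeR adjusted p = 0.00167, and 0.0642 without shNUP153 replicate 1). LINC00707 was at 5.32 and 4.31 CPM and then 2.58 and 3.79 CPM (log2 fold change -0.59, edgeR adjusted p = 0.0178). Without shNUP153 replicate 1 its log2 fold change was -0.34, with an adjusted p of 0.324, and without shControl replicate 1 the adjusted p was 0.116. LINC01508 was at 5.36 and 6.04 CPM in shControl and 3.78 and 4.21 CPM in shNUP153 (log2 fold change -0.52, edgeR adjusted p = 0.0158, and 0.137 without shNUP153 replicate 1 and 0.108 without shControl replicate 2).

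LINC02298 was at 8.93 and 8.66 CPM in shControl and 7.63 and 5.52 CPM in shNUP153 (log2 fold change -0.41, edgeR adjusted p = 0.0239). The lower value came from shNUP153 replicate 2, without which the log2 fold change was -0.21 and the adjusted p 0.406. LINC01843 was at 9.02 and 9.19 CPM and then 7.63 and 6.57 CPM (log2 fold change -0.36, edgeR adjusted p = 0.0347, and 0.28 without shNUP153 replicate 2, 0.0858 without shControl replicate 2). LINC01116 was at 21.9 and 22.4 CPM and then 17.9 and 17.6 CPM, a narrow pair of groups with a gap between them (log2 fold change -0.32, edgeR adjusted p = 0.00506, and 0.0506 or 0.066 without shNUP153 replicate 1 or 2). LINC01291 was at 22.6 and 19.99 CPM and then 17.2 and 17.0 CPM (log2 fold change -0.31, edgeR adjusted p = 0.00845, and 0.0723 or 0.0842 without shNUP153 replicate 1 or 2 and 0.0914 without shControl replicate 1).

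LINC01503 is a lncRNA of squamous carcinoma, expressed from a super-enhancer that p63 binds. It was the most abundant LINC gene here, at 47.8 and 46.6 CPM in shControl and 44.1 and 39.3 CPM in shNUP153. The groups were separate by little, and the fall of 1.13-fold was barely past the threshold (log2 fold change -0.18, SE 0.0694, edgeR adjusted p = 0.0468). It failed the test under DESeq2 (adjusted p 0.153), total-count scaling (0.225), upper-quartile scaling (0.14), no filter on low counts (0.055), a filter at a mean of 1 CPM (0.0544) and when 1 of 3 libraries was left out: shNUP153 replicate 2 (0.493), shNUP153 replicate 1 (0.0512) or shControl replicate 1 (0.093).

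The members had sums of 100 to 4380 counts, with a median of 301, whereas the median over all tested genes was 1608. Their mean level in shControl ran from 0.327 to 47.2 CPM, with a median of 2.88 CPM. Levels were also taken per kb of GENCODE 29 exon, merged over all transcripts of a gene. Genes with many annotated transcripts can come out low on this scale, such as LINC00511 (106 transcripts, 27605 bases, 1.17 CPM per kb in shControl). LINC01503 led in shControl with 29.6 CPM per kb, followed by LINC00941 (20 CPM per kb), LINC02562 (18 CPM per kb), LINC01186 (17.1 CPM per kb) and LINC02657 (17.1 CPM per kb). The median was 1.23 CPM per kb, and the lowest, LINC01204, was at 0.0621 CPM per kb. The 8 genes with the most counts were LINC01503, LINC00667, LINC02577, LINC00963, LINC00511, LINC00839, LINC00941 and LINC00467, of which LINC01503 fell and LINC00941 rose. The other 6 had log2 fold changes between -0.08 (LINC00963) and 0.17 (LINC00511, edgeR adjusted p = 0.0797). LINC00511 passed the test under total-count (adjusted p 0.014) and upper-quartile scaling (0.0255), and LINC02577 (-0.01) turned to 0.05 under the first.

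At the minimum sum, the members just inside were LINC00898 with 100 counts, LINC02029 with 101 and LINC01293 with 105, a sum that LINC01348 shared. Just outside were LINC02026 with 98 counts (14 and 20 in shControl, 36 and 28 in shNUP153), LINC01167 with 97 (32 and 26, then 23 and 16) and LINC00648 with 96 (23 and 17, then 31 and 25).

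Since genes with more counts can pass the test with smaller changes, the LINC genes were set beside other genes in the same ranges of summed counts. At 100 to under 200 counts 11 of 57 LINC genes rose and 0 fell, 19.3% against 8.64% higher and 3.42% lower among the 1435 other genes of that range. At 200 to under 500 counts 11 of 62 rose and 4 fell, 17.7% and 6.45%, beside 13.4% and 6.7% among 1673 other genes. At 500 to under 1000 counts 3 of 26 rose and 2 fell, 11.5% and 7.69%, beside 15.6% and 11.4% among 1337. At 1000 to under 5000 counts 5 of 30 rose and 3 fell, 16.7% and 10%, beside 17.6% and 20.4% among 5066. No LINC gene of the lowest range was lower at an unadjusted p of 0.05 or in DESeq2 or limma. The share of LINC genes that rose was above that of the other genes only in the lower pair of ranges. Of the 30 risen members 9, all with sums under 200, had under 50 counts over the shControl libraries. They met the minimum sum through the shNUP153 libraries in which they were high, so nothing is read from that excess.

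Within 100 to under 200 counts the smallest change that passed among LINC genes was 0.86 on the log2 scale, and within 1000 to under 5000 counts it was 0.18. The median log2 fold change in the lowest range was 0.16 for the LINC genes and 0.13 for the other genes. In the second range it was 0.12 and 0.07, in the third 0.04 and 0.02, and in the highest 0.06 and -0.01. Positive medians at low counts were therefore shared with genes that carry other names. Pooled over 100 to under 5000 counts, other genes were called higher in 15.2%, lower in 14.2%, higher by at least 2-fold in 1.55% and lower by at least 2-fold in 0.862%. The LINC genes had 6.86% of members higher by at least 2-fold, but they lie more in the low ranges than those genes do.

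Weighted to the LINC genes' own spread over the ranges, 22.6 of 175 other genes would be called higher and 15.2 lower, beside 30 and 9 counted. Of those 30 rises, 9 met the minimum sum through the knockdown libraries, so no conclusion is drawn from the difference. For rises of at least 2-fold the weighted number was 4.63 of 175, beside 12 counted, 8 of which met the minimum sum only through the knockdown libraries, so nothing is read from that difference. Against other lncRNA genes by GENCODE 29 type the weighted numbers were 17.7 higher, 9.85 lower and 2.17 higher by 2-fold. Against protein-coding genes they were 25.7, 17.2 and 6.31. Among other lncRNA genes at 100 to under 200 counts 5.82% of 464 were higher and 0.431% lower, and at 200 to under 500 counts 9.56% of 387 were higher and 4.39% lower. These shares were compared as descriptions, with no test.

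**Figure D2:**
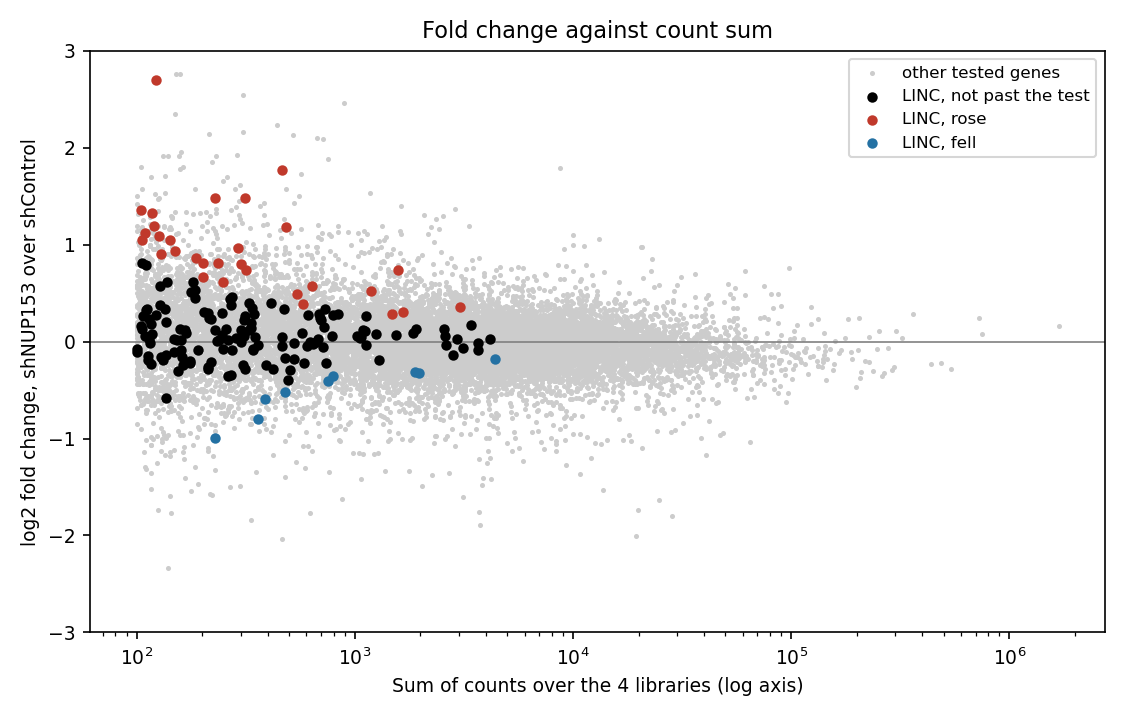
Log2 fold change of shNUP153 over shControl against the sum of counts over the 4 libraries on a log axis, 1 point per gene with 100 counts or more: LINC genes that rose in red, fell in blue or did not pass the test in black, other tested genes in grey. The LINC genes end at 4380 counts, and all 12 rises of at least 2-fold lie below 500 counts.

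**Figure D3:**
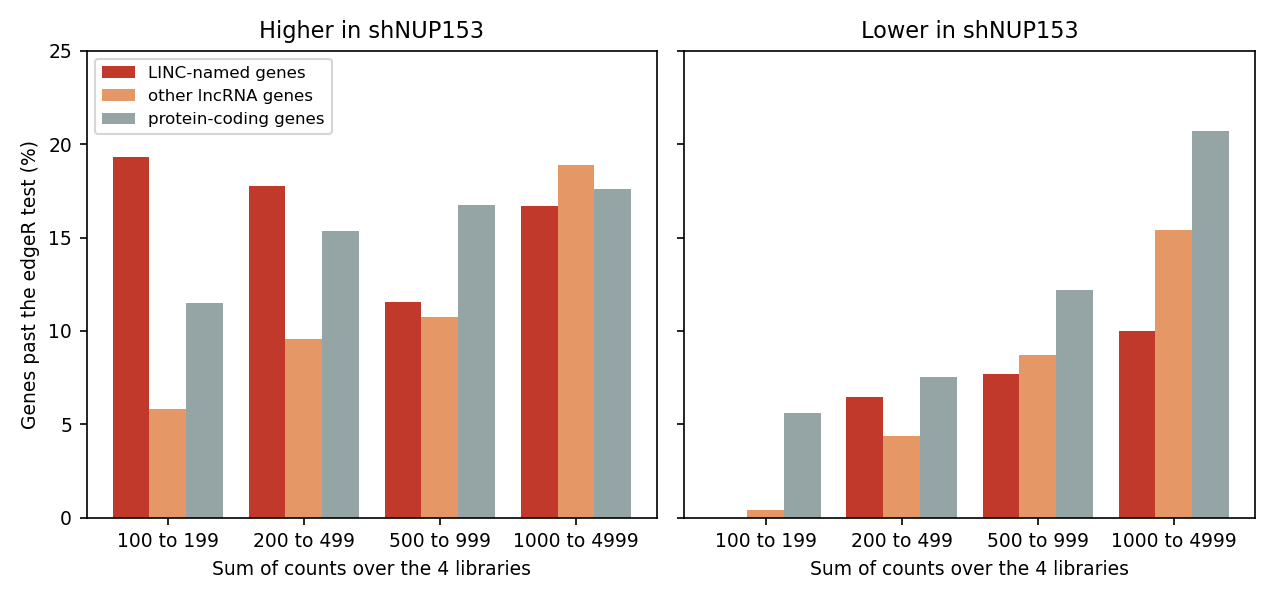
Percent of genes past the edgeR test by range of summed counts, higher in shNUP153 on the left and lower on the right, for LINC genes in red, other lncRNA genes in orange and protein-coding genes in grey. At 100 to under 200 counts the LINC bar for higher stands at 19.3% and the LINC bar for lower at 0%.

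Of 36 LINC names listed from general knowledge as studied in carcinoma, 29 were in the table and 18 were members. LINC00941 and LINC01133 rose, LINC00707, LINC01116 and LINC01503 fell, and 13 did not pass the test. That was 11.1% higher and 16.7% lower, beside 17.1% and 5.14% of all members and 15% and 17.4% of all tested genes. The median log2 fold change of the 18 was 0.06, beside 0.01 over all tested genes. Among those that missed the test were LINC01234 (log2 fold change 0.46, edgeR adjusted p = 0.106) and LINC00346, also called PRECSIT and under p53 control, at 8.25 and 7.13 CPM in shControl and 9.18 and 9.52 CPM in shNUP153 (log2 fold change 0.29, edgeR adjusted p = 0.0852). LINC00346 had an adjusted p of 0.0311 under total-count scaling, 0.0449 under upper-quartile scaling and 0.038 without shControl replicate 1. LINC00460 and LINC00520 were among 11 listed genes in the table with fewer than 100 counts. Of 9 LINC names listed as coding for small proteins, the table held LINC00467, which did not pass (log2 fold change 0.02).

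By GENCODE 29 the members were 139 lincRNA genes, 13 processed transcripts, 10 antisense genes, 7 transcribed unprocessed pseudogenes, 3 transcribed unitary pseudogenes, 2 bidirectional promoter lncRNAs and 1 protein-coding gene. Exons of 17 members overlapped exons of a protein-coding gene, 9 of them on the opposite strand. The strand setting of the counting is not given, so reads of such pairs cannot be told apart. Among the 17, LINC01176, LINC01578 and LINC02210 rose (17.65%, beside 17.1% of all members and 15% of all tested genes) and 0 fell in edgeR, with 0 lower at an unadjusted p of 0.05 and 0 in DESeq2 and limma. Leaving these 17 out, an alternative added after the data were seen, left 27 rises and 9 falls among 158 members.

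Gene structure is given by medians, with no test between the outcomes. Exon length had a median of 2071 bases in the members that rose, 1597 in those that fell and 2792 in those that did not pass. The median GC content of the longest transcript was 47.3%, 52.6% and 47.6% in the same order. The median exon number was 4, 3 and 4. Summed counts, which the choice of members used, had medians of 242.5, 758 and 293, with quartiles of 133 and 527 in the risen members and 160 and 652 in those that did not pass.

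The nearest protein-coding gene by the RefSeq table was found for 174 members, at a median distance of 14850 bp, and 125 pairs had both genes tested. Among the 30 risen members 25 had a tested nearest gene, of which 9 rose, 3 fell and 13 did not pass. That was 36% higher and 12% lower, beside 16.7% higher and 21.1% lower among all 13308 tested protein-coding genes. Within 50 kb there were 20 such pairs of risen members, in which the nearest gene rose in 6 and fell in 3. Among 93 tested nearest genes of members that did not pass, 12 rose and 19 fell (12.9% and 20.4%). Of the 7 tested nearest genes of fallen members 0 passed in edgeR, DESeq2 or limma and 2 had an unadjusted p under 0.05. Their median log2 fold change was -0.13. Over all 125 pairs Pearson's r of the log2 fold changes was 0.208 and Spearman's rho 0.223, and within 50 kb (93 pairs) they were 0.229 and 0.23. The pairs share their 4 libraries and a few members share a nearest gene, so these are descriptions.

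CHD2, which encodes a chromatin remodeller, is the nearest gene of LINC01578, 1577 bp away. LINC01578, now named CHASERR, is known to lie upstream of CHD2 and to restrain it in cis, and was named here after its values were seen. LINC01578 was at 15.9 and 14.4 CPM in shControl and 17.9 and 19.3 CPM in shNUP153 (log2 fold change 0.30, edgeR adjusted p = 0.0142). CHD2 was at 69.8 and 65.5 CPM in shControl and 101 and 96.9 CPM in shNUP153 (log2 fold change 0.55, edgeR adjusted p = 1.4e-09). Both genes rose and neither overlapped between groups. The LINC01578 call was lost without shControl replicate 2 (adjusted p 0.135), without shNUP153 replicate 2 (0.18) and under DESeq2 (0.0862).

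MAP3K9, a kinase gene next to LINC01269, was at 138 and 131 CPM in shControl and 184 and 175 CPM in shNUP153 (log2 fold change 0.42, edgeR adjusted p = 3.15e-08). ANKRD10, the nearest gene of LINC00431 (50958 bp away) and of LINC00346 (8232 bp), was at 38.2 and 35.4 CPM and then 52.1 and 47.5 CPM (log2 fold change 0.44, edgeR adjusted p = 6.06e-06). IRF2BPL, 58741 bp from LINC01629, was at 65.8 and 68.1 CPM and then 79.7 and 82.2 CPM (log2 fold change 0.27, edgeR adjusted p = 0.0003). Other risen pairs, named after their values were seen, included LINC00888 with MCF2L2, LINC00973 with DCBLD2, LINC01504 with ZFAND5 and LINC02541 with MARCKS, which is 207270 bp away. These nearest genes showed log2 fold changes of 0.24 to 0.58. In 3 pairs the nearest gene fell while the LINC gene rose: BRD7 next to LINC02178 (-0.29), RFC4 next to LINC02043 (-0.32) and FBLN1 next to LINC01589 (-0.35).

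**Figure D4:**
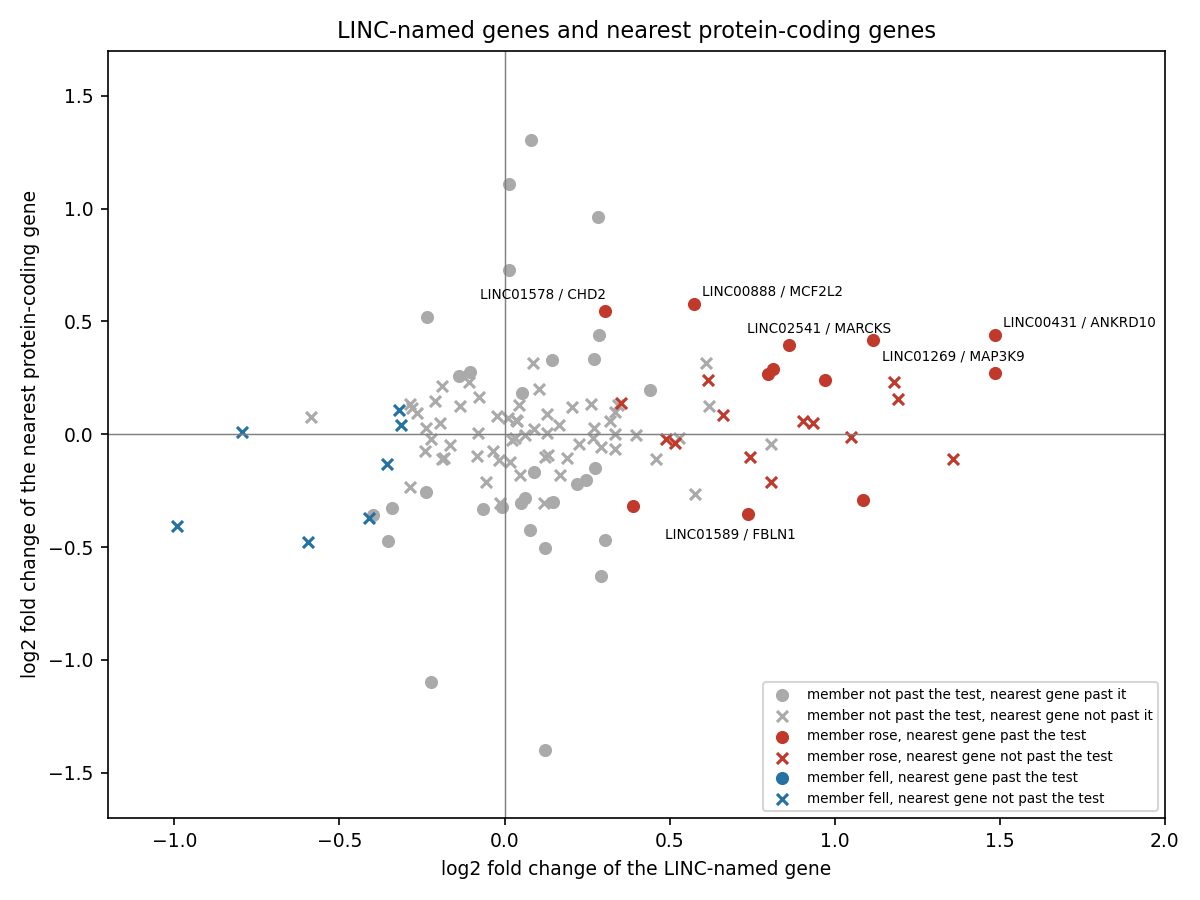
Log2 fold change of the nearest protein-coding gene against that of the LINC gene for 125 pairs, red where the LINC gene rose, blue where it fell and grey where it did not pass, circles where the nearest gene passed the test and crosses where it did not. Red circles stand above 0 in 9 pairs and below 0 in 3.

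Promoters of risen LINC genes are shown because AP-1, the FOS and JUN factor that answers stress and growth signals, has a short motif that can be read in them. The RefSeq table for GRCh38.p14 held the 300 bases from 250 before to 50 after the gene start for 126 of the 175 members. The motif TGANTCA, searched on both strands with overlaps allowed, was in 7.76% of all 27305 promoters. It was in 17 of 126 members (13.5%), in 5 of 24 risen members (20.8%), in 0 of 6 fallen members and in 12 of 96 that did not pass (12.5%). The 5 risen members are printed 5′ to 3′ on the gene's strand, with the motif in capitals. The printed 300 bases lie at chr14:76959388-76959687 for LINC01629 and chr14:70698448-70698747 for LINC01269, both on the plus strand. Those of LINC00973 lie at chr3:98914316-98914615 and those of LINC01504 at chr9:72305186-72305485, also on the plus strand. Those of LINC02657 lie at chr10:5596069-5596368 on the minus strand. LINC00973, LINC01504 and LINC02657 were chosen after their values were seen.
LINC01629: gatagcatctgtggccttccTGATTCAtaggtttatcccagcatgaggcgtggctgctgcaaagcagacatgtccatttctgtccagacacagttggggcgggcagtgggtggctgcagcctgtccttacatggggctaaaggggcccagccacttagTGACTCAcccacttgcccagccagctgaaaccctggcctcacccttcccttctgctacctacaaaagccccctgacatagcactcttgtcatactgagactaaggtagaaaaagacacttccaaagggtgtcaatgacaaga
LINC01269: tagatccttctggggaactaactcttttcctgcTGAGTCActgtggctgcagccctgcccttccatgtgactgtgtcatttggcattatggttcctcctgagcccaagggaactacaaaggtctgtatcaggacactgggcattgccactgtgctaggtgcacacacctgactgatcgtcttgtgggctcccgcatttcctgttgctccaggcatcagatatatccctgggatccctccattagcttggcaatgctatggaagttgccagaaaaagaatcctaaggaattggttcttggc
LINC00973: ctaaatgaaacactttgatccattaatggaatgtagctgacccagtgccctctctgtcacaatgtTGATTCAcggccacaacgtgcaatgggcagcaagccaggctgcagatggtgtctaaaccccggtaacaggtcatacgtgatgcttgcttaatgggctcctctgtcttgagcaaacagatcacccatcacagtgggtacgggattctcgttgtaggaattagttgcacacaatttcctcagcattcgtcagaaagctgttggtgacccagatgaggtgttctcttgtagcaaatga
LINC01504: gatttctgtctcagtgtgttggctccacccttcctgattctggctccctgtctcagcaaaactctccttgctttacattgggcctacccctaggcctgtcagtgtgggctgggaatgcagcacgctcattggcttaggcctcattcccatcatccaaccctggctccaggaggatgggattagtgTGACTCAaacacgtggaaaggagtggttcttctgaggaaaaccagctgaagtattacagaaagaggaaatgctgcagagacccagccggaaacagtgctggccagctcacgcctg
LINC02657: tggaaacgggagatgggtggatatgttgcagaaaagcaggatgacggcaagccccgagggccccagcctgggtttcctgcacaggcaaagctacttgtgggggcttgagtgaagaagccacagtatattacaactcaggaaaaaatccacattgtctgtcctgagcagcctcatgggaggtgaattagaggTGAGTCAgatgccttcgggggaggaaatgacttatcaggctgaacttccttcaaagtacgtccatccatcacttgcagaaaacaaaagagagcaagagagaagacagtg

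LINC01629 had 2 matches, which begin 230 and 92 bases before the gene start. The single matches began 217 bases before it in LINC01269, 185 in LINC00973, 65 in LINC01504 and 59 in LINC02657. LINC01504, on chromosome 9, was at 1.67 and 1.80 CPM in shControl and 3.24 and 2.87 CPM in shNUP153 (log2 fold change 0.81, edgeR adjusted p = 0.00707, 0.0954 without shNUP153 replicate 1 and 0.0645 under DESeq2). A match is a description of letters and not of binding. Of the other motifs searched in the same way, the CRE motif TGACGTCA was in 2 members and 0 risen ones (1.98% of all promoters), the interferon-stimulated response element in 2 and 0 (3.65%) and the E2F motif TTTNGCGC in 1 and 0 (1.83%). The TATA motif TATAAA was in 17 members (13.5%), 2 of them risen and 1 fallen, and in 11.95% of all promoters.

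Genes of nuclear RNA decay and 3′ end processing were counted because their products limit the level of many lncRNAs. The 46 names searched include older symbols of genes also listed by their current symbol, so they stand for fewer genes. Of these names 40 were tested, of which 2 rose (5%) and 10 fell (25%), where 15% and 17.4% of all tested genes did. The median log2 fold change of the 40 was -0.09, beside 0.01 over all tested genes. Most of the 40 had sums of 1000 counts or more. Among non-member genes at 1000 to under 5000 counts 17.6% were higher and 20.4% lower, and at 5000 or more 18.2% and 33.7%. The share of decay genes that fell lies between those shares, and the share that rose lies below them. EXOSC4, an exosome subunit (0.29), and NCBP3, a cap-binding protein (0.26), rose. INTS1, a subunit of Integrator (-0.35, edgeR adjusted p = 3.53e-06), XRN2, the exonuclease of transcription termination (-0.27, edgeR adjusted p = 4.26e-05), MTREX, the exosome helicase (-0.17), EXOSC9 (-0.26), NCBP1 (-0.33), NCBP2 (-0.13), WDR82 (-0.15), INTS7 (-0.25), INTS8 (-0.20) and INTS12 (-0.50) fell. Their part in the changes of LINC genes was not tested.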

How the data were processed

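The deposited table holds whole-number counts per gene and library, with no normalization. Its name says FPKM, but the deposited values are integers with unequal library totals and were taken as raw counts. The authors' deposited log2 ratio and p-value per gene were not used. Per the submitters' processing notes the tools included kallisto, Bowtie2, deepTools and DESeq2 and the build was hg19, without roles; which tool counted, on which strand and with which annotation is not given in these sources. All 56657 gene IDs were found in GENCODE 29, which gave types and exons, and RefSeq gave nearest genes and promoters.

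Genes were filtered with filterByExpr (minimum count 10, minimum total 15) and tested by edgeR's quasi-likelihood method (edgeR 4.0.16, R 4.3.3) with TMM scaling, two-sided, with Benjamini-Hochberg adjustment over 16817 genes and 2 residual degrees of freedom. The alternatives used DESeq2 1.42.0, limma 3.58.1 on voom values, other scalings and filters, a replicate block, other minimum sums and each library left out. The script was tested on simulated data. Named genes were NUP153, the 12 largest rises and falls whose libraries do not overlap (9 fell), the 8 largest and 3 smallest sums, the 3 rows just under the minimum, 2 LINC lists and nearest genes. The members and lists were chosen with earlier results of these data known. The result of 1 nearest gene is not reported here.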

Additional observations from a re-analysis of the deposited data

How the results depend on the processing

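Of the 39 called LINC genes, 11 lost no call in 12 other fits (10 rose, 1 fell; LINC01204 had no adjusted p in DESeq2). DESeq2 called 10 members higher and 3 lower and 1442 of all genes higher; it gave no adjusted p for 8 of the 30 risen members. Leaving out each library gave 14 to 25 members higher, 4 to 7 lower and medians of 0.089 to 0.125, and 1303 to 2327 genes higher and 1769 to 2874 lower over all tested genes; the fewest members came without shNUP153 replicate 1. The member median log2 fold change was 0.154 under total-count scaling and 0.133 under upper-quartile scaling. Of all calls 62.8% were higher under total-count and 57.6% under upper-quartile scaling, beside 46.3% with TMM. Of the members' calls 86% were higher under total-count scaling, beside 76.9% with TMM. Genes of 5000 counts or more, which include no member, were 18.2% higher and 33.7% lower with TMM. Of the 30 risen members 9 met the minimum sum through the knockdown libraries. Nothing is therefore read from the members' share set beside that of all calls. With a minimum sum of 50 the median was 0.121 over 244 genes, and with 200 it was 0.065 over 118 genes. Of those 118 genes 19 rose, where 15% of all tested genes were higher. The 57 members left out at 200 held 11 rises and 0 falls. These 11 include the 9 rises with under 50 counts in shControl. The numbers 1 and 2 did not pair the libraries (correlation of same-number deviations -0.023 over 11035 genes), and the replicate block gave 30 higher and 9 lower, a median of 0.086, and 2530 genes higher and 2935 lower over all genes.

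Among members that missed the test, the log2 fold change of LINC02577 turned to 0.052 under total-count and 0.032 under upper-quartile scaling. With 1 library left out it ran from -0.065 to 0.032 in LINC02577, -0.326 to 0.171 in LINC00958, -0.09 to 0.188 in LINC00680, -0.3 to 0.411 in LINC00491, -0.053 to 0.101 in LINC00667, -0.005 to 0.321 in LINC01293, -0.045 to 0.079 in LINC00467, -0.177 to 0.031 in LINC00839 and -0.083 to 0.187 in LINC01410. The cause was not tested. At 100 to under 200 counts the median SE was 0.318 on the log2 scale, and the smallest change called among the members was 0.86.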
